A study of Mus musculus with 18 samples.

Results

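Laminins and nidogens were followed in cardiac fibroblasts of the neonatal mouse heart within and after the regenerative window. The genes described are 10 of the 55453 gene symbols in the count table, chosen by name and not by their values. They are the laminin alpha chain genes Lama2, Lama3, Lama4 and Lama5, the beta chain genes Lamb1 and Lamb2, the gamma chain genes Lamc1 and Lamc3, and the nidogen genes Nid1 and Nid2. All 10 symbols were found, and 9 had enough reads to be tested. Lama3 had 92 reads in all, spread over 7 of 18 libraries, and was not tested.

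The cells were GFP+ cells sorted from hearts of Tcf21-MerCreMer; Rosa-mTmG pups, a line in which tamoxifen turns on membrane GFP in cells that express Tcf21, a fibroblast transcription factor. Every group carried both alleles and received tamoxifen at P1, so GFP marks the descendants of cells that expressed Tcf21 at that age. The 6 groups held 3 libraries each. P2 baseline and P10 baseline came from un-manipulated pups of that age. P2 sham and P2 resected came from pups operated at P2 and collected 3 days later, at P5, after sham surgery or removal of the apex. P10 sham and P10 resected were operated at P10 and collected 3 days later, at P13. The regenerative window is formed by the 3 P2 groups and the non-regenerative window by the 3 P10 groups, 9 libraries each. Neither the labels nor the methods give the number of pups behind a library, so p-values measure the spread between libraries, which may be technical. Sex is not given either.

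A laminin is a heterotrimer of an alpha, a beta and a gamma chain that assembles into a sheet under or around cells, the first layer of a basement membrane. Nidogens link that sheet to the collagen IV network. In heart and skeletal muscle, laminins that contain the Lama2 chain surround muscle cells and bind integrins and dystroglycan, and loss of Lama2 causes a congenital muscular dystrophy. The Lama4 chain is known from vessel walls, and Lama5 from many epithelial and endothelial basement membranes.

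The libraries held 10462737 to 22980554 counts on genes, with a median of 19547978. A level is given in CPM, the counts of a gene per 1000000 counts of the library size scaled by edgeR's TMM, and different genes are set side by side only as CPM per kilobase of annotated exon. Fibroblast markers, summed over 8 genes that include Pdgfra, Tcf21 and Col1a1, reached 24243 to 60482 CPM and none was at 0 in any group. Genes with more than 8000 exon bases, the members left out, took 15.1% to 27.9% of a library's counts. In 3 libraries, the first replicates of P2 sham, P10 baseline and P10 sham, this share was the highest of the group, at 27.5%, 27.9% and 23.8%, and their names end in the same digit, whose meaning the labels do not give. These 3 libraries bear on several results below, which are therefore also given without them.

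The abundant genes formed a graded series per exon length. Nid1 stood at 377 ± 176 CPM per kilobase (SD over 18 libraries), Lamc1 at 298 ± 140.0, Lamb1 at 188 ± 62.6 and Lama4 at 90.8 ± 29.2. Lamc1, the gamma chain of most laminins, exceeded Lamb1, and Lamb1 exceeded Lama4, in 18 of 18 libraries, whereas Nid1 exceeded Lamc1 in 17 of 18. Lamb2 followed at 53.2 ± 20.9, Nid2 at 46.1 ± 16.7 and Lama2 at 40.9 ± 27.8 CPM per kilobase. These last neighbours were not separated, since Lamb2 exceeded Nid2 in 13 of 18 libraries and Nid2 exceeded Lama2 in 11 of 18. The ranges of all these neighbours overlapped across libraries.

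A second set of genes was near the limit of detection. Lama5 averaged 0.377 CPM per kilobase and had reads in 16 of 18 libraries. Lamc3 averaged 0.117 and had reads in 8 of 18, and Lama3 averaged 0.0282. Of laminin chains outside the 10 genes, Lamb3 reached 0.244 and Lama1 0.0179 CPM per kilobase. By level, the chains of these sorted cells were therefore mainly Lama4 and Lama2, Lamb1 and Lamb2, and Lamc1. A gene without reads in a library could still have had up to 3 counts, and this floor covers counting error only.

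**Figure D1:**
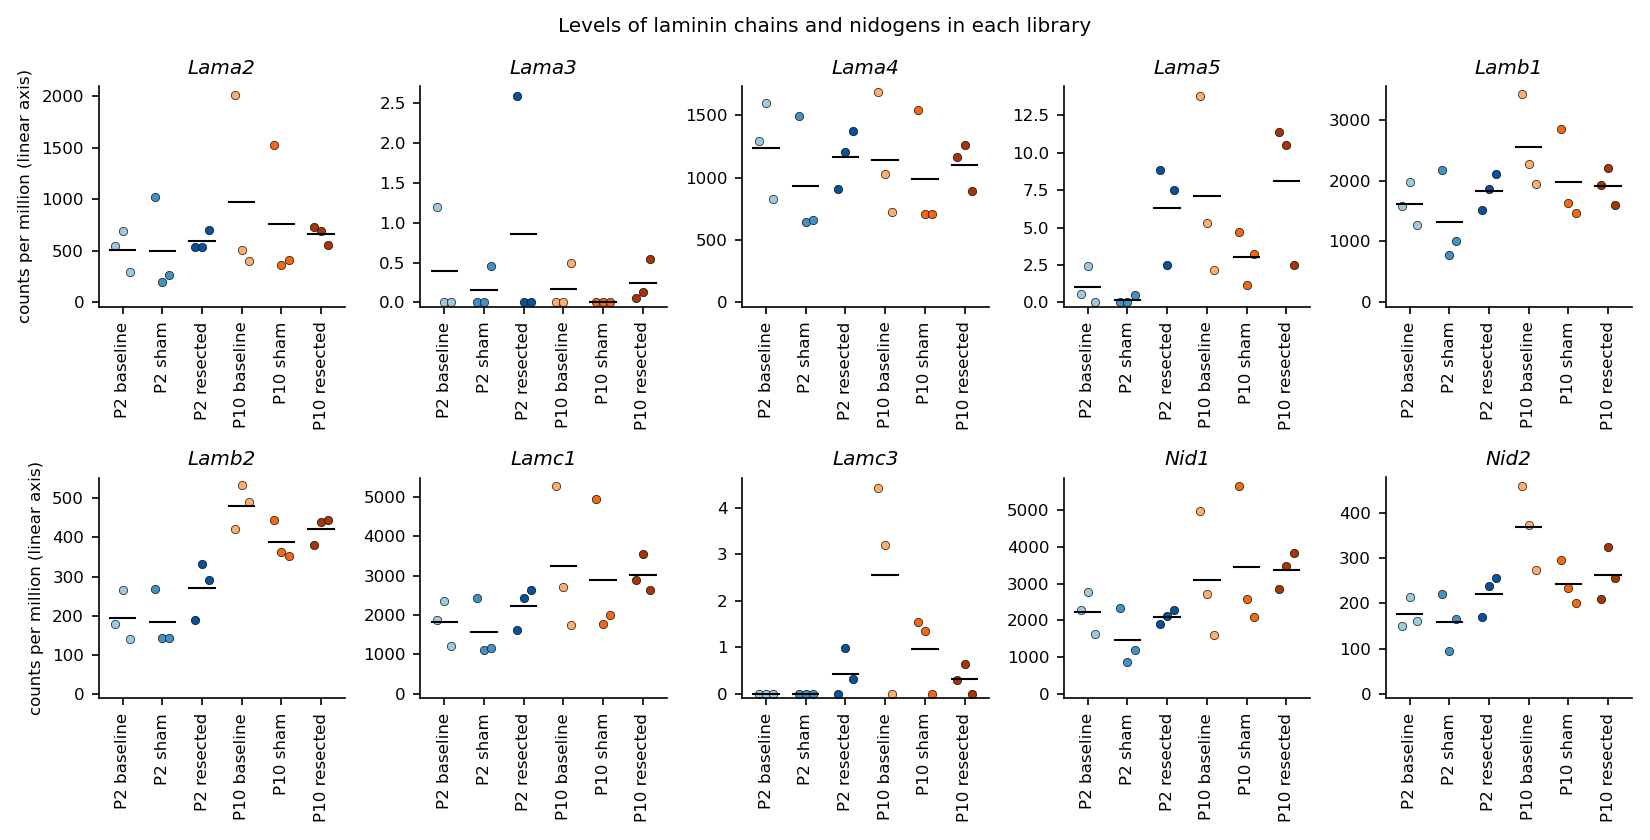
Each point is 1 library and each bar a group mean, in CPM on linear axes that differ between genes. Lamb2 is the gene whose 9 P10 libraries, from 354 CPM upward, all lie above its 9 P2 libraries, which reach 332 CPM. In Lama2, Lamc1 and Nid1 the first replicates of P10 baseline and P10 sham stand far above the others of their group.

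All 10 genes are annotated as protein coding on GRCm38. The beta chain gene Lamb1 lies on the plus strand of chr12:31265234-31329644 and Lamb2 on the plus strand of chr9:108479736-108490530. Nid1 lies on the plus strand of chr13:13437551-13512269, Nid2 on the plus strand of chr14:19751265-19811787 and Lama5 on the minus strand of chr2:180176373-180225859. Reads were counted without strand, so reads from genes on the other strand cannot be told apart where exons overlap. Exons on the other strand covered 8.45% of the exon bases of Nid2, where Rtraf lies, 6.27% of those of Lamc3, 3.86% of those of Lama2, 2.06% of those of Nid1 and 1.83% of those of Lama3.

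Upstream sequences are shown for the beta chain pair, of which Lamb2 differed between the windows, for Nid1 and for Lama5. They were read from the RefSeq promoter table of GRCm38.p6, which held 5 of the 10 genes, and each is printed 5′ to 3′ on the gene's strand up to the annotated gene start of GENCODE M21. They span chr12:31265043-31265233 for Lamb1, chr9:108479612-108479735 for Lamb2, chr13:13437352-13437550 for Nid1 and chr2:180225860-180226109 for Lama5. Capitals mark matches, on either strand, to CCAAT, to the GC box GGGCGG or to the Tead motif GGAATG, and the stretch of Lamb2 has none. The TATA box TATAAA and the AP-1 motif TGANTCA were also searched and had no match.
Lamb1: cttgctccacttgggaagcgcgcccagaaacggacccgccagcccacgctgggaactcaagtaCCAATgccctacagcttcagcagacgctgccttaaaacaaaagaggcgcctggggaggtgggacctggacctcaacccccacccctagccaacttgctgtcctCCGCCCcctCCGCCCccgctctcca
Lamb2: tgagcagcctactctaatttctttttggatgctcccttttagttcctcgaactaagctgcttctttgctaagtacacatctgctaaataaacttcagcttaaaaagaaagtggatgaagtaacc
Nid1: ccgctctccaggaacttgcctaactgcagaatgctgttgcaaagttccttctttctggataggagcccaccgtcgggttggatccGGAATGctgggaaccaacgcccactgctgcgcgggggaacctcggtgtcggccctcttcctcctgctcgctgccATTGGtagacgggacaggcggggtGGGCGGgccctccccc
Lama5: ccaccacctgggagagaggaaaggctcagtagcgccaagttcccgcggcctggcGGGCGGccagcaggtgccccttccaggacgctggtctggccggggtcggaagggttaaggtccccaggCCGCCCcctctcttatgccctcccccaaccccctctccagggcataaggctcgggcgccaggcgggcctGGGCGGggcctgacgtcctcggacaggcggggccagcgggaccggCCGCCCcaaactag

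Over the 250 bases before the RefSeq start, the GC content was 62.0% for Lamb1 and 43.6% for Lamb2, against a median of 52.4% over 32851 promoters. RefSeq and GENCODE place the starts of Lamb1, Lamb2 and Nid1 at different bases. The Lamb1 window held 14 CpG and matched CCAAT and the GC box, whereas the Lamb2 window held 3 CpG and matched none of the 5 motifs. Nid1 matched CCAAT, the GC box and the Tead motif, and Lama5 held 4 GC boxes and 19 CpG. Of all promoters, 33.8% held CCAAT, 32.7% the GC box, 12.6% the Tead motif, 12.4% TATAAA and 6.7% TGANTCA. No relation between these letters and the levels was tested.

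To ask how the genes differed between the regenerative and the non-regenerative window, the 9 P10 libraries were compared with the 9 P2 libraries. Lamb2, Nid1, Nid2, Lama5 and Lamc3 were higher in the P10 window at an adjusted p under 0.05, which is 5 of the 9 genes tested. Lamc3 passed the filter on low counts only through the groups in which it had reads, and of the other 8 genes 4 were called. None was lower. In these bulk libraries, a change in the number of cells of a type and a change in RNA per cell cannot be told apart. Across all 16170 genes tested, 13.5% were called in either direction and 7.11% higher in the P10 window. The median log2 fold change of the 9 genes was 0.72, against -0.06 over all genes.

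Lamb2, a beta chain enriched in the basement membranes of kidney glomeruli and the neuromuscular synapse, changed most clearly. In P2 baseline libraries it stood at 179.7, 265 and 140.4 CPM, in P2 sham at 267, 143.3 and 143.4 CPM and in P2 resected at 189, 332 and 290.1 CPM. In P10 baseline it stood at 422, 534 and 489 CPM, in P10 sham at 446, 363 and 354 CPM and in P10 resected at 381, 439 and 444 CPM. The windows did not overlap, which held in the same direction for 1.15% of all genes tested. Its mean was 217 ± 72.7 CPM (SD, n = 9) in the P2 window and 430.1 ± 58.7 CPM (SD, n = 9) in the P10 window. The log2 fold change was 1.00 ± 0.16 (SE) with an adjusted p of 0.000417. The call of Lamb2 held whichever 1 of the 18 libraries was left out and under all 7 other alternatives, which changed the tool, the scaling, the filter, the libraries or the terms of the fit, with adjusted p from 4.79e-08 to 0.00154. It belongs to the genes that the study listed as different between the baselines of these same libraries, as does Nid2, so their direction is not independent evidence.

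Lamb1, the other beta chain, ranged from 786 CPM over a median of 1577 to 2169 CPM in the P2 window. In the P10 window it ranged from 1467 over 1951 to 3418 CPM. The windows overlapped widely and its log2 fold change of 0.44 ± 0.20 (SE) did not pass, with an adjusted p of 0.157. Lamb1 passed in 4 of 7 other alternatives and in 1 of the 18 fits that left out a library. The difference between the changes of the beta chains was not tested. Per exon length, Lamb2 made up 18.3 ± 2.75% (SD, n = 9) of the beta chain reads in the P2 window and 25.4 ± 4.52% (SD, n = 9) in the P10 window. Single libraries ranged from 15.3% to 22.9% and from 16.8% to 31.2%, so this share overlapped between the windows where the level of Lamb2 did not. The P10 library with the lowest share, 16.8%, was the first replicate of P10 baseline.

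The nidogens moved in the same direction. Nid2 stood at 150.4, 214 and 162 CPM in P2 baseline, at 219.8, 94.3 and 164 CPM in P2 sham and at 169.5, 238 and 257 CPM in P2 resected. It stood at 459, 373 and 274 CPM in P10 baseline, at 295, 234 and 200.5 CPM in P10 sham and at 210.3, 324 and 255 CPM in P10 resected. The windows overlapped, and the highest values, 459 and 373 CPM, were those of P10 baseline replicates 1 and 2. Nid2 had a log2 fold change of 0.64 ± 0.17 (SE) with an adjusted p of 0.0174, and it was called with each library left out and under all 7 other alternatives.

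Nid1, the more abundant nidogen, ranged from 864 over a median of 2119 to 2763 CPM in the P2 window and from 1606 over 2847 to 5643 CPM in the P10 window. The libraries overlapped, and the highest P10 values, 5643 and 4972 CPM, were those of the first replicates of P10 sham and P10 baseline. Its log2 fold change was 0.80 ± 0.24 (SE) with an adjusted p of 0.0354. The call held in 7 of the 18 fits that left out 1 library, with adjusted p from 0.0086 to 0.0718, and those 7 left out P2 baseline replicate 2, P2 sham replicate 1, P10 baseline replicate 2 or 3, P10 sham replicate 2 or 3, or P10 resected replicate 1. It held under all 7 other alternatives. The share of Nid2 among nidogen reads per exon length was 11.8 ± 2.22% (SD, n = 9) in the P2 and 11.4 ± 3.71% (SD, n = 9) in the P10 window. By group it averaged 9.77% in P2 baseline and 15.1% in P10 baseline, 13.2% in P2 sham and 9.58% in P10 sham, and 12.3% in P2 resected and 9.45% in P10 resected, and the libraries of each of these pairs overlapped.

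Lamc1, the gamma chain, ranged from 1113 over a median of 1881 to 2629 CPM in the P2 window and from 1736 over 2713 to 5277 CPM in the P10 window. Its windows overlapped, and the log2 fold change of 0.72 ± 0.25 (SE) did not pass, with an adjusted p of 0.067. It passed in 6 of 7 other alternatives, among them DESeq2, which called 18.7% of all genes, with an adjusted p of 0.0289, and in 3 of the 18 fits that left out a library.

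The abundant alpha chains did not pass. Lama2 ranged from 203 over a median of 541 to 1023 CPM in the P2 window and from 362 over 556 to 2009.8 CPM in the P10 window. Its medians were nearly equal, and its P10 mean was carried by the first replicates of P10 baseline and P10 sham at 2009.8 and 1524 CPM. Lama2 had a log2 fold change of 0.57 ± 0.38 (SE), with an adjusted p of 0.358, and of 0.23 without the 3 libraries. It passed in 2 of 7 other alternatives and in 0 of the 18 fits that left out a library. Lama4 ranged from 645 over 1206 to 1599.9 CPM in the P2 window and from 706 over 1030.3 to 1683 CPM in the P10 window. Of the abundant genes it differed least, with a log2 fold change of -0.04 ± 0.22 (SE) and an adjusted p of 0.958, and its sign turned in other fits.

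Lama5, an alpha chain, was rare in all groups. Its counts were 13, 53 and 0 in P2 baseline, 1, 0 and 8 in P2 sham and 151, 58 and 137 in P2 resected libraries. They were 227, 99 and 22 in P10 baseline, 94, 18 and 68 in P10 sham and 229, 166 and 32 in P10 resected libraries. The 3 P2 sham libraries and 2 of the 3 P2 baseline libraries lay below all 9 P10 libraries in CPM, while P2 baseline replicate 2 and the P2 resected libraries lay within the P10 range. Lama5 averaged 2.50 ± 3.39 CPM (SD, n = 9) in the P2 window and 6.08 ± 4.62 CPM (SD, n = 9) in the P10 window. The fitted log2 fold change of 2.40 ± 0.73 (SE), with an adjusted p of 0.0364, averages log levels of the groups and so weighs the near-empty P2 sham group as much as the others. The call held in 6 of 18 fits that left out a library, those without P2 baseline replicate 2 or 3, P2 sham replicate 3, P10 baseline replicate 3, P10 sham replicate 2 or P10 resected replicate 3. The highest adjusted p without 1 library was 0.0749, and without the 3 libraries together it was 0.107. Of the 7 other alternatives, 5 kept the call.

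Lamc3, a gamma chain of few tissues, had no read in any of the 6 P2 baseline and P2 sham libraries. In P2 resected libraries it had 0, 23 and 6 counts, in P10 baseline 73, 60 and 0, in P10 sham 31, 21 and 0, and in P10 resected 6, 10 and 0. The third replicate of every P10 group was at 0. The summed counts of 201 in the P10 and 29 in the P2 window gave a level 8.13-fold higher in the P10 window, with a 95% counting interval of 5.49 to 12.5. This interval covers counting error and not the spread between libraries. By group mean, P2 resected, at 0.44 CPM, lay above P10 resected, at 0.31 CPM. P2 resected replicate 2 held 23 of the 29 P2 counts, and without it the level was 34.1-fold higher. Lamc3 was called at an adjusted p of 0.0293. The call was lost without P2 baseline replicate 1 (adjusted p = 0.0516) or 2 (0.0504), P2 resected replicate 3 (0.0621), P10 baseline replicate 2 (0.0504) or P10 resected replicate 2 (0.0568). It held in 4 of 7 other alternatives and was lost without the 3 libraries together, at 0.056, and by limma voom, at 0.109 with a log2 fold change of 2.69 against 5.07. Lama3, with 77 reads in the P2 and 15 in the P10 window, took 44 of them from a single P2 resected library.

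**Figure D2:**
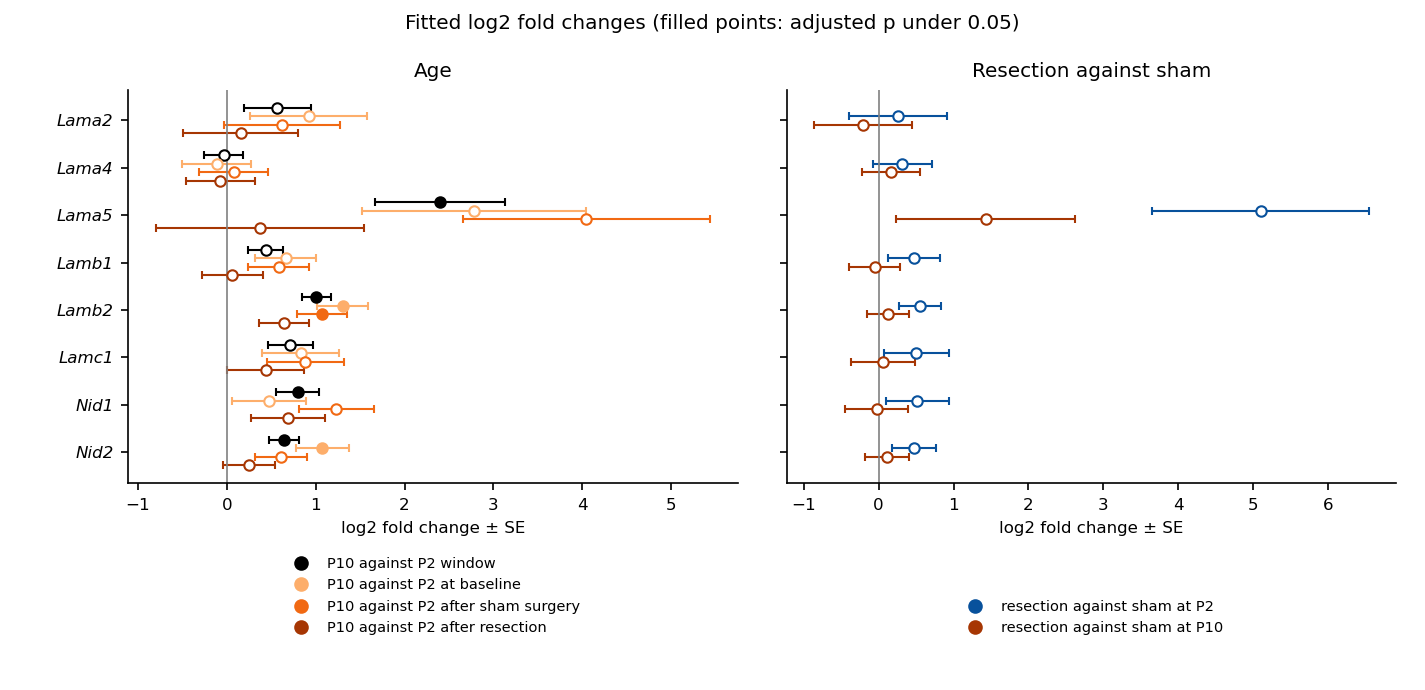
Fitted log2 fold changes with standard errors of 8 genes, by age on the left and for resection against sham on the right, with filled points for an adjusted p under 0.05. Lamb2 is filled over the whole windows, at baseline and after sham surgery, and every point on the right is open. Lamc3, which had groups without reads, and Lama3, which was not tested, are not drawn.

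At baseline, P10 cells were compared with P2 cells of un-manipulated pups. Lamb2 and Nid2 were higher at P10 and no other gene passed in edgeR, against 4.38% of all genes called and 2.71% called higher. DESeq2, which called 9.89% of all genes, also called Lamc3, with an adjusted p of 0.0301. For Lamb2 the P2 mean was 195 ± 63.6 CPM and the P10 mean 482 ± 56.2 CPM (SD over 3 libraries), and the log2 fold change was 1.30 ± 0.28 (SE) with an adjusted p of 0.0141 by edgeR. For Nid2 the means were 175 ± 34.0 CPM and 369 ± 92.5 CPM (SD over 3 libraries), and the log2 fold change was 1.07 ± 0.30 (SE) with an adjusted p of 0.0491 by edgeR. The libraries of both genes did not overlap between the ages, as for 10.3% of all genes in this direction. The call of Lamb2 held under all 8 other alternatives and was lost without P2 baseline replicate 1 (adjusted p = 0.0735) or 3 (0.0668) or P10 baseline replicate 2 (0.0622). That of Nid2 held under 7 of 8 other alternatives and was lost in all 6 fits that left out a library, with adjusted p from 0.0509 to 0.181. Lamc3 had 133 summed counts in P10 baseline and 0 in P2 baseline. With the floor of 3 counts set over the group, the summed level was at least 58.3-fold higher. It was at least 37.1-fold higher without P2 baseline replicate 1 and 37.3-fold without replicate 2. These bounds cover counting error only and not the spread between libraries. The P10 baseline libraries held 73, 60 and 0 counts, so the libraries of the 2 ages overlapped. The adjusted p of Lamc3 was 0.114 by edgeR, and 2 of 8 other alternatives called it. Markers of other cell types moved with this comparison. Of 9 mural markers 4 were called higher at P10, with a median log2 fold change of 1.26 over the list, and their summed level was 518 to 848 CPM in P2 baseline and 1048 to 2006 CPM in P10 baseline. Of 8 fibroblast markers 3 and of 10 endothelial markers 1 were called higher, and no marker was called lower. Of 10 cardiomyocyte markers 0 had log2 fold changes above 0, with a median of -1.25. Of 7 epicardial markers 0 were above 0, with a median of -2.48, from sums of at most 18.3 CPM. Of 9 macrophage markers 7 were above 0, with a median of 0.79, and of 4 Schwann cell markers 1, with a median of -0.25. The part of these cells in the baseline values was not tested.

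After sham surgery Lamb2 was again higher at P10, and it was the only one of the 9 genes to pass in edgeR, against 3.18% of all genes called and 1.54% called higher. It averaged 185 ± 71.5 CPM (SD, n = 3) in P2 sham and 387 ± 50.6 CPM (SD, n = 3) in P10 sham. The log2 fold change was 1.07 ± 0.28 (SE) with an adjusted p of 0.0476 by edgeR. This call was lost in 5 of 6 fits that left out a library, with adjusted p up to 0.165, and held without P2 sham replicate 1 at 0.00985. Nid1 had a log2 fold change of 1.23 ± 0.42 (SE) without passing, at an adjusted p of 0.14. It passed in 4 of 8 other alternatives, and its log2 fold change ran from 0.68 without P10 sham replicate 1 to 1.74 without P2 sham replicate 1, where it passed at 0.0477. Lama5 was higher in every P10 sham library, from 1.16 to 4.69 CPM, than in every P2 sham library, from 0 to 0.522 CPM, as for 9.07% of all genes. It was not called by edgeR, with an adjusted p of 0.142, but was called by DESeq2, at 0.0158, which called 7.37% of all genes, and in 2 of 8 other alternatives in all.

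After resection none of the 9 genes passed between P10 and P2, against 0.86% of all genes called. DESeq2 called 3.07% of all genes and none of the 9 either. With the share of counts on long genes as a term in the fit, 3 were called higher in P10 resected libraries, namely Nid1 (log2 fold change 1.04, adjusted p 0.00255), Lamc1 (0.80, 0.0259) and Lama2 (0.74, 0.0341). That fit called 386 of all genes, against 139 without the term. In edgeR, Lamb2 alone of the 9 had an unadjusted p under 0.05, against 8.77% of all genes. Lamb2 averaged 270.3 ± 73.6 CPM (SD, n = 3) in P2 resected and 421 ± 35.0 CPM (SD, n = 3) in P10 resected, with a log2 fold change of 0.64 ± 0.28 (SE) and an adjusted p of 0.507 by edgeR. Lamb2, Lamc1 and Nid1 did not overlap between these groups, as 10.6% of all genes did not in this direction. Lama5 averaged 6.29 ± 3.37 CPM (SD, n = 3) in P2 resected and 8.14 ± 4.91 CPM (SD, n = 3) in P10 resected, and its libraries overlapped. Whether the age difference of any gene depended on resection was tested as the difference between the resection effects, given below, and no gene passed.

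To ask how resection changed these genes at each age, resected libraries were compared with sham libraries collected on the same day. None of the 9 genes was called at P2, at P10 or over both ages, and edgeR called 0% of all genes tested in each of the 3 comparisons. At an unadjusted p under 0.05, 4.51% of all genes passed at P2, 4.09% at P10 and 5.78% over both ages. DESeq2 called 0.155%, 0.241% and 0.421% of all genes, among them Lama5 at P2 and over both ages.

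Of the 8 genes with reads in both groups, Lama5 had the largest fold change at P2. The P2 sham libraries held 0.0464, 0 and 0.522 CPM and the P2 resected libraries 8.85, 2.48 and 7.54 CPM. The 3 resected libraries all lay above the 3 sham libraries, as for 5.62% of all genes in this direction. The log2 fold change was 5.10 ± 1.45 (SE) with an adjusted p of 1 by edgeR and of 0.0227 by DESeq2, and it lay between 4.47 and 7.71 with 1 library left out, the highest without P2 sham replicate 3 and the lowest without replicate 2. Lama5 is in the study's table of genes that differed between these P2 groups, so the direction is not independent evidence. The P2 sham group held 9 counts of Lama5 in all and P2 baseline 66, so P2 sham was the lowest of the 6 groups. At P10 the sham libraries held 4.69, 1.16 and 3.21 CPM and the resected libraries 11.4, 10.5 and 2.49 CPM, which overlapped. The log2 fold change there was 1.43 ± 1.19 (SE), and the resection effect at P10 minus that at P2 was -3.67 ± 1.77 (SE), with an adjusted p of 1.00. This difference was -6.29 without P2 sham replicate 3 and -3.05 without P2 sham replicate 2.

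At P2 the log2 fold changes of the 7 abundant genes were of one sign in the fit of all libraries. They lay between 0.26 for Lama2 and 0.55 for Lamb2, with standard errors from 0.28 to 0.65, and the groups overlapped in each. Without the 3 libraries, among them P2 sham replicate 1, they lay between 0.78 for Nid2 and 1.34 for Lama2, and none passed. With the long gene share as a term, Lama2 was at -0.11. Lamb2 averaged 185 ± 71.5 CPM (SD, n = 3) in sham and 270.3 ± 73.6 CPM (SD, n = 3) in resected libraries at P2. At P10 the 7 genes lay between -0.21 for Lama2 and 0.17 for Lama4. The median over the 9 genes was 0.50 at P2 and 0.06 at P10, against 0 and 0.02 over all genes. Interaction values of all 9 genes were below 0 with adjusted p of 1.00, and edgeR called 0% of all genes there. At an unadjusted p under 0.05, 2.88% of all genes passed, among them Lamc3, and DESeq2 called 0.148% and none of the 9.

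Markers of other cell types were read beside these resection values, and none of them was called at either age. At P2, 9 of 9 macrophage markers had log2 fold changes above 0 in resected against sham libraries, with a median of 0.81, and summed to 5.29 to 154 CPM in sham and 60.5 to 384 CPM in resected libraries. Of 10 endothelial markers 9 were above 0 at P2, with a median of 0.49, and of 9 mural markers 7, with a median of 0.46. Cardiomyocyte markers had a median of -0.84 and fibroblast markers of 0.03 at P2. At P10 the medians were 1.22 for macrophage, 1.27 for endothelial and 0.06 for mural markers. Epicardial markers had a median of 4.28 there with 7 of 7 above 0, but summed to 0, 8.80 and 4.67 CPM in P10 sham and to 57.4, 11.1 and 3.96 CPM in P10 resected libraries, which overlapped and of which replicate 1 was far the highest, and Schwann cell markers had a median of -1.22 with 0 of 4 above 0. The part of these cell types in the resection values was not tested.

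These resection values moved with the 3 libraries named above. The first replicates of P2 sham and P10 sham had the highest Lama2, Lama4, Lamb1, Lamc1 and Nid1 of their groups, for instance 1023 CPM of Lama2 against 203 and 268 in P2 sham, and 1524 against 362 and 409 in P10 sham. Without the 3 libraries, 5 of the 9 genes were called higher in resected cells over both ages, namely Lama2 (log2 fold change 1.06), Lamc1 (0.82), Nid1 (0.78), Lama4 (0.74) and Lamb1 (0.67), with adjusted p from 0.0168 to 0.0342. In that fit 925 of all genes were called. The 3 libraries were chosen after seeing the data, and leaving them out removes the sham library highest for these 5 genes at each age. This lowers the sham side by selection, so the 5 calls are no independent evidence of a resection effect. With the share of counts on long genes as a term in the fit of all 18 libraries, none of the 9 was called over both ages. The share was 20.3 ± 6.45% (SD, n = 3) in P2 sham and 23.7 ± 1.09% (SD, n = 3) in P2 resected libraries, and 19.3 ± 3.93% (SD, n = 3) and 21.1 ± 0.78% (SD, n = 3) at P10. The part of this share in the resection values was not tested beyond these fits.

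Sham and baseline libraries of one window differ both in surgery and in 3 days of growth. None of the 9 genes was called between them at either age, and edgeR called 0% of all genes at P2 and 0.00618%, which is 1 gene, at P10, with 7.6% and 7.4% of all genes at an unadjusted p under 0.05. DESeq2 called 0.853% and 0.748% and none of the 9. At P2 the log2 fold changes of the 8 genes with reads lay below 0, from -2.50 for Lama5 to -0.04 for Lama2. The value of Lama5 was -5.11 without P2 sham replicate 3 and -0.78 without P2 baseline replicate 2. At P10, Nid2 averaged 369 ± 92.5 CPM (SD, n = 3) at baseline and 243 ± 48.2 CPM (SD, n = 3) after sham surgery, with a log2 fold change of -0.60 ± 0.30 (SE) and an adjusted p of 0.682 by edgeR.

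**Figure D3:**
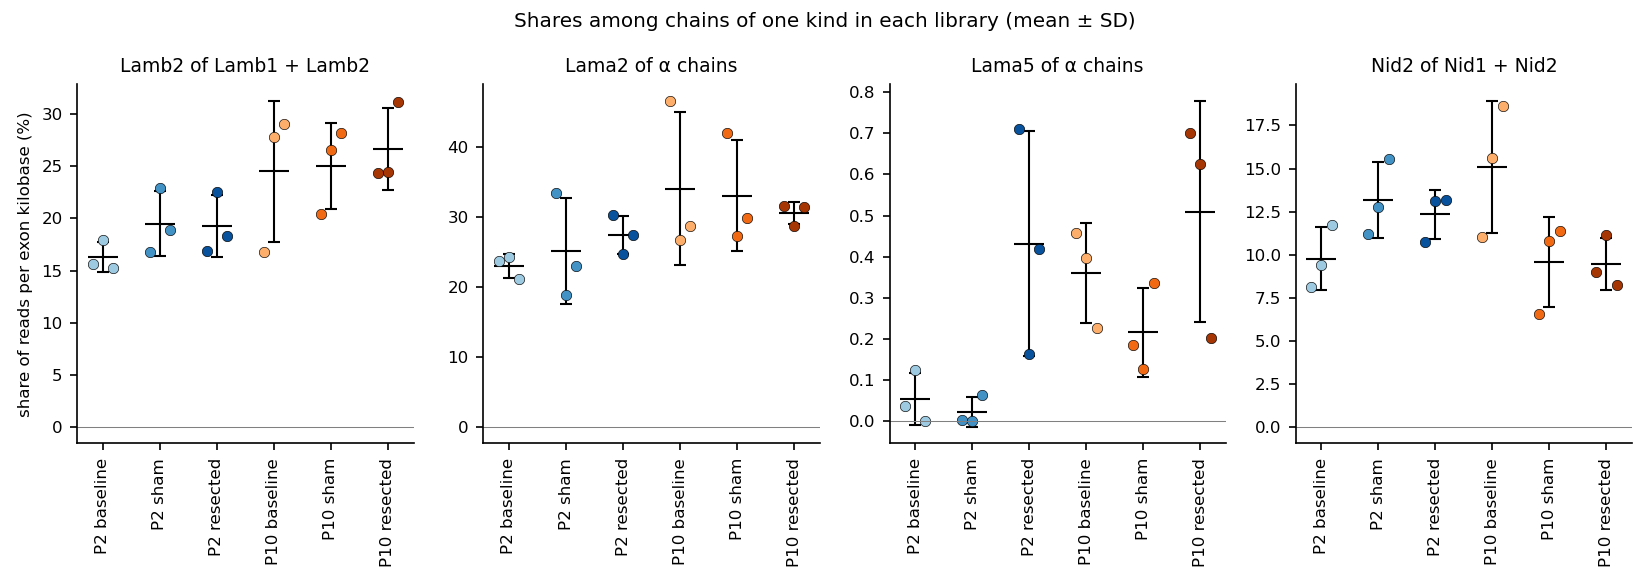
Shares of reads per exon kilobase among chains of one kind, in percent, with 1 point for each library and the mean ± SD of each group. Lamb2 holds more of the beta chain reads in the P10 groups, at 24.5% to 26.7% on average, than in the P2 groups, at 16.3% to 19.5%, with overlapping libraries. Lama5 is at most 0.71% of the alpha chain reads in any library.

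The makeup of the alpha chains was dominated by Lama4 at both ages. Per exon length, Lama4 made up 74.6 ± 4.69% (SD, n = 9) of the alpha chain reads in the P2 window and 67.0 ± 6.96% (SD, n = 9) in the P10 window. Lama2 made up 25.2 ± 4.54% (SD, n = 9) and 32.6 ± 6.96% (SD, n = 9). The libraries overlapped, from 18.8% to 33.5% and from 26.8% to 46.7%. The highest Lama2 shares were those of the first replicates of P10 baseline, at 46.7%, and P10 sham, at 42.1%. Lama5 made up 0.022 ± 0.037% (SD, n = 3) in P2 sham and 0.51 ± 0.27% (SD, n = 3) in P10 resected, the lowest and highest group means. Shares of bare counts, without division by length, gave 12.1% and 17.3% for Lamb2 and 31.3% and 39.4% for Lama2.

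Libraries of one group differed for many of these genes at once. Of the 7 abundant genes, Lamc1, Lama4, Lamb1 and Nid2 were highest in the library with the highest share of counts on long genes in 6 of 6 groups, Lama2 and Nid1 in 5 of 6, and Lamb2 in 3 of 6. The 7 genes have between 5174 and 16338 exon bases, and Lamb2 and Nid2, with 6082 and 5174, are the shortest of them. The median deviation of the 7 genes from their group mean reached 0.80 on the log2 scale in the first replicate of P2 sham, 0.75 in that of P10 sham and 0.64 in that of P10 baseline. In P10 baseline, Lamc1 stood at 5277, 2713 and 1736 CPM, whereas Lamb2 stood at 422, 534 and 489 CPM, so the library highest for Lamc1 was the lowest for Lamb2.

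The long gene share did not separate the windows, with 22.4 ± 4.03% (SD, n = 9) in P2 and 20.6 ± 3.68% (SD, n = 9) in P10 libraries. With this share as a term in the fit, 8 of the 9 genes were called higher in the P10 window, all but Lama4. There Lama2 had a log2 fold change of 0.86, Lamb1 of 0.64 and Lamc1 of 0.90, with adjusted p of 1.09e-05, 4.88e-05 and 1.02e-05. In that fit 3301 genes were called in all, against 2183 without the term. Without the 3 libraries 5 genes were called, namely Lamb1, Lamb2, Lamc1, Nid1 and Nid2, and 3830 genes in all. Lamb2 and Nid2 were called in each of these fits.

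**Figure D4:**
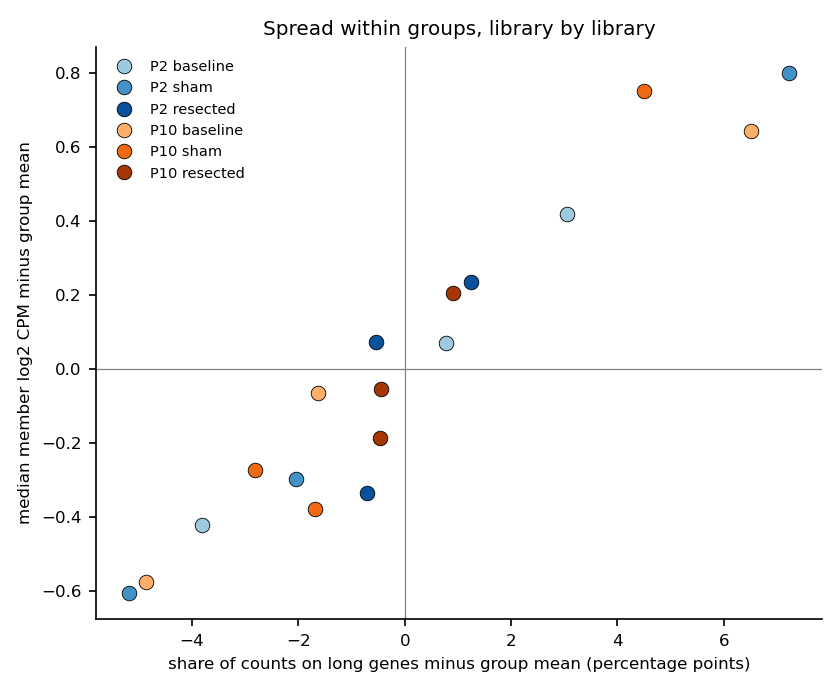
Each point is 1 library, with the share of its counts on long genes minus the group mean on the horizontal axis, in percentage points, and the median log2 deviation of the 7 abundant genes from their group mean on the vertical axis. The first replicates of P2 sham, P10 sham and P10 baseline stand at the top right, at 0.80, 0.75 and 0.64.

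The other genes of the basement membrane were taken from a list of 21 components. In the P10 window 11 of them were higher and 1 was lower, against 13.5% of all genes called, and the median log2 fold change was 0.93. Smoc2, a calcium-binding matrix protein of the SPARC family, rose from 985 ± 192 to 2948 ± 554 CPM (SD over 9 libraries), that is by 1.59 ± 0.10 (SE) on the log2 scale, at an adjusted p of 2.19e-08 by edgeR. Ntn4, a netrin that binds laminin gamma chains and can disrupt laminin networks, rose from 10.4 ± 2.84 to 59.5 ± 19.8 CPM (SD over 9 libraries). Its log2 fold change was 2.49 ± 0.21 (SE), with an adjusted p of 7.67e-07. The libraries of Smoc2 and Ntn4 did not overlap between the windows.

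Fbln1 and Fbln2, fibulins that bind laminin and nidogen, rose by 1.37 ± 0.17 and 0.93 ± 0.14 on the log2 scale, and Col4a4, a collagen IV chain, rose by 2.57 ± 0.34 (SE). The abundant collagen IV chains Col4a1 and Col4a2, named here after their values were seen, had log2 fold changes of -0.0028 and 0.02 and did not pass. The gene that fell was Frem1, a matrix protein of epithelial basement membranes, also named for being the only one, at -1.90 ± 0.41 (SE) with an adjusted p of 0.00428. At baseline 8 of the 21 were higher, against 2.71% of all genes called higher, after sham surgery 5, against 1.54%, and after resection 3, against 0.86% called in either direction. None was lower in these 3 comparisons. The study's list of genes that differ between these baselines holds Fbln1, Sparc, Col4a3, Col4a4 and Col4a6, which is no independent evidence. None of the 21 was called for resection. Col18a1, which the study lists beside Lama5 for P2, averaged 48.1 ± 21.7 CPM in P2 sham and 125 ± 28.7 CPM in P2 resected libraries (SD, n = 3 each), without overlap. Its log2 fold change was 1.38 ± 0.33 (SE), with an adjusted p of 1 by edgeR and 0.0372 by DESeq2.

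Among 16 genes of laminin receptors and the dystrophin-glycoprotein complex, 3 were higher and 1 was lower in the P10 window, against 13.5% of all genes called and 7.11% called higher. Itga7, the alpha subunit of a muscle laminin integrin and also in the study's baseline list, rose from 37.2 ± 19.5 to 101.8 ± 43.6 CPM (SD over 9 libraries), or by 1.53 ± 0.19 (SE) on the log2 scale, with an adjusted p of 3.81e-05 by edgeR. Itga6, an integrin alpha subunit of epithelial and endothelial laminin receptors, fell from 55.6 ± 28.5 to 16.8 ± 8.20 CPM (SD over 9 libraries), at a log2 fold change of -1.77 ± 0.34 (SE) and an adjusted p of 0.00179 by edgeR. Dag1, which encodes dystroglycan, and Sgce, a sarcoglycan, rose by 0.50 ± 0.14 and 0.33 ± 0.10 (SE) on the log2 scale, with adjusted p of 0.0217 and 0.0386. The median of the 16 was 0.10.

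Of laminin chains outside the 10 genes, Lama1 and Lamb3 did not pass.

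**Figure D5:**
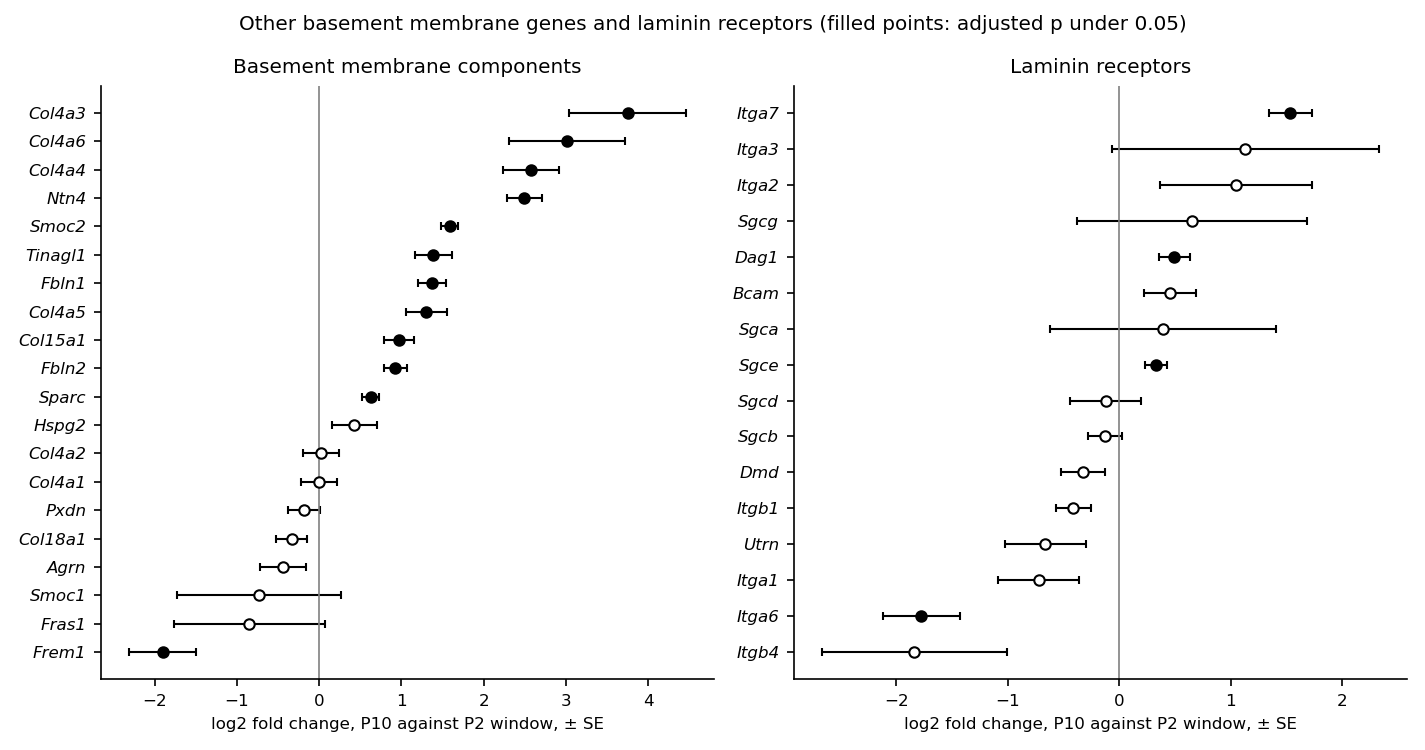
Log2 fold changes with standard errors between the P10 and P2 windows for 20 of the 21 basement membrane components on the left and 16 laminin receptor genes on the right, with filled points for an adjusted p under 0.05. On the left 11 filled points lie above 0 and 1 below, and on the right 3 above and 1 below. Frem2 is not drawn because its standard error was 25.5.

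Other cell types of the heart also make laminins and nidogens, and markers of some of them differed between the windows. The counts below stand against 13.5% of all genes called, 7.11% higher and 6.39% lower. Of 9 mural cell markers, 4 were higher and 1 was lower in the P10 window, and their summed level ranged from 518 to 1380.4 CPM in P2 and from 886 to 2006 CPM in P10 libraries. Of 10 endothelial markers 1 was higher, with sums from 190.2 to 548 and from 288 to 574 CPM. Of 10 cardiomyocyte markers 4 were lower, with sums from 233 to 1071 and from 118 to 606 CPM. Of 8 fibroblast markers 3 were higher, with sums from 24243 to 44484 and from 43932 to 60482 CPM. No marker of these 4 lists was at 0 in a whole group.

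Epicardial markers summed to at most 57.4 CPM and Schwann cell markers to at most 64.1 CPM. Macrophage markers summed to 5.29 to 384 CPM with a median of 60.5 CPM in P2 libraries and to 17.0 to 984 CPM with a median of 173 CPM in P10 libraries. Of the 9 macrophage markers, 8 had log2 fold changes above 0, with a median of 0.98. None of these 3 lists had a called gene between the windows. Among the epicardial markers, Krt8, Lrrn4 and Muc16 had no reads in P10 sham and Upk1b and Wt1 none in P10 baseline, and among the Schwann cell markers Sox10 and Kcna1 had none in 5 and 6 of the 6 groups. The part of other cell types in the values of Lamb2, Nid1, Nid2, Lama5 and Lamc3 was not tested.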

How the data were processed

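RNA of sorted GFP+ cells was amplified with the SMARTer v4 kit from 1 ng and sequenced as single-end reads. Per the labels and methods, the authors trimmed reads with FastP 0.20.0, aligned them with STAR 2.7.0f to GRCm38.p6 and assigned them to exons by gene name with featureCounts of Subread 1.6.4, without strand. They deposited whole-number counts per gene, not normalized, in 1 table. The reads carry no molecular identifiers and were amplified, so intervals and floors on counts cover counting error only.

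The whole table was tested with edgeR 4.0.16 in R 4.3.3 by its quasi-likelihood test, with 1 mean for each of the 6 groups over all 18 libraries, each comparison as a contrast, filterByExpr (minimum count of 10, minimum total of 15), TMM scaling and Benjamini-Hochberg adjustment over all genes tested, with a threshold of 0.05. Alternatives were DESeq2 1.42.0, limma 3.58.1 voom with sample quality weights, DESeq2's size factors, no filter, only the groups compared, the replicate number as a block and leaving out each library. A fit without 3 libraries together and one with the share of counts on long genes as a term were chosen after seeing the data. The fit was tested on simulated data. The 18 pairs of libraries within groups had a chi-square per gene of 35.4 to 315, well above sampling noise, and pairs across groups were not compared in this way. Exon lengths and positions came from GENCODE M21, whereas the counts used M22.

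The genes, lists and alternatives were chosen with earlier results of these data known. All 10 laminins and nidogens are named. Of each list of partner genes, up to 5 with the smallest adjusted p between the windows are named, and Col18a1 because the study lists it beside Lama5. Some genes that this rule would name are not reported here.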

Additional observations from a re-analysis of the deposited data

How the results depend on the processing

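With 1 library left out in turn, 644 values and counts kept their direction and their side of the threshold, 65 changed sign, 42 lost and 5 gained calls, and under the other alternatives 628, 30, 8 and 45 did. The 5 genes called between the windows became 8 without a filter on low counts, 8 with the long gene term and 2 to 6 with a library left out. At baseline, 2 became 3 by DESeq2, 5 without the filter, 1 with only the groups compared, 6 with the long gene term and 0 to 1 with a library left out. After sham surgery, 1 became 2 by DESeq2 and 2 by voom, 0 with DESeq2's size factors, 4 without the filter, 0 with only the groups compared, 2 without the 3 libraries, 6 with the long gene term and 0 to 2 with a library left out. After resection, 0 became 3 with the long gene term. For resection, 0 became 1 by DESeq2 and 1 without the filter, at P2 as over both ages, and 5 over both ages without the 3 libraries. For sham against baseline at P2, 0 became 2 without the 3 libraries, where 479 of all genes were called. Over all genes, 2183 were called between the windows, 1742 to 3034 with a library left out and up to 4569 under the other alternatives, 709, 292 to 1273 and 296 to 3645 at baseline, 515, 328 to 424 and 134 to 1191 after sham surgery, and 139, 33 to 136 and 147 to 908 after resection. The cause of these changes was not tested. Same-numbered libraries of different groups deviated together with r over 0.1 in 19 of 45 pairs, with a median r of 0.077 and r down to -0.22. Of 90 pairs with different numbers, 20 were over 0.1, with a median r of -0.033. Of 18 libraries, 11 correlated best with one of their own number. The 3 libraries left out together correlated with each other at r of 0.44 to 0.51. The labels do not say that the numbers pair the libraries, so the main fit has no block. A shared effect of the number was not tested. With the replicate block 4 genes were called between the windows, where Lama5 (2.26, adjusted p = 0.0584) and Lamc3 (4.29, 0.0669) no longer passed and Lamc1 (0.65, 0.0472) did. Signs of log2 fold changes turned as follows. Without the filter, Lama4 was at 0.0020 between the windows. By voom, Lama2, Lamb1, Lamc3 and Nid1 were at 0.58, 0.21, 0.31 and 0.34 for resection at P10. With the block, Lama2, Lamb1 and Nid1 were at 0.12, 0.0027 and 0.13 there. Without the 3 libraries, they were at 0.78, 0.30 and 0.53 there, and Lama2 and Nid1 at -0.17 and -0.044 at baseline. For resection over both ages, Lama2 was at -9.48e-06 by DESeq2 and at -5.05e-05 with its size factors. With the long gene term, Lama4 was at 0.17 between the windows, 0.043 at baseline, 0.25 after resection, 0.039 for the difference of the resection effects and 0.023 for sham against baseline at P10. With that term, Lama2 was at -0.11 for resection at P2, -0.19 over both ages, and 0.24 and 0.18 for sham against baseline at P2 and P10. It put Lamc1 at -0.039 and Nid2 at -0.0041 for resection at P10, Lamb2 and Lamc1 at 0.029 and 0.12 for sham against baseline at P2, and Lamc1 at 0.13 at P10. Nid2, at -0.0012 with this term for sham against baseline at P2, kept its sign. It is counted among the 30 only because it rounds to 0. With a library left out, signs turned within these ranges. Between the windows Lama4 (-0.20 to 0.14). Between ages at baseline Lama2 (-0.17 to 1.30), Lama4 (-0.50 to 0.13), Nid1 (-0.044 to 0.79). Between ages after sham surgery Lama2 (-0.37 to 1.70), Lama4 (-0.40 to 0.60). Between ages after resection Lama4 (-0.22 to 0.073), Lama5 (-0.0089 to 0.82), Lamb1 (-0.055 to 0.19), Lamc3 (-1.47 to 0.89). For resection at P2 Lama2 (-0.13 to 1.34). For resection at P10 Lama2 (-0.54 to 0.78), Lama4 (-0.026 to 0.65), Lamb1 (-0.23 to 0.30), Lamc1 (-0.20 to 0.68), Nid1 (-0.28 to 0.53), Nid2 (-0.064 to 0.28). For resection over both ages Lama2 (-0.17 to 0.57). For the difference of the resection effects Lama2 (-1.55 to 0.53), Lama4 (-0.67 to 0.33), Lamc1 (-0.91 to 0.18), Nid1 (-1.05 to 0.012). For sham against baseline at P2 Lama2 (-1.13 to 0.34), Lamb2 (-0.44 to 0.21), Lamc1 (-0.67 to 0.020), Nid2 (-0.44 to 0.14). For sham against baseline at P10 Lama2 (-1.34 to 0.75), Lama4 (-0.70 to 0.17), Lamc1 (-0.78 to 0.38), Nid1 (-0.40 to 0.68). Lama3, Lama5 and Lamc3 had libraries without reads, and the part of sequencing depth in this was not tested.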
